A study of Bos taurus with 14 samples.

Results

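Interferons act on cells through paired receptor chains. This account follows the IFNAR2 and IFNGR1 chains and the ligand interferon beta (IFNB1) in bovine cells treated with another interferon. The genes were taken by name, as the annotation in the array files gives them, whatever their values were. They make up 3 of the 6769 genes with a symbol on the array, and they are carried by 4 of its 15208 non-control probes.

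Type I interferons, among them interferon alpha, beta, omega and tau, bind a receptor built of IFNAR1 and IFNAR2, with IFNAR2 as the chain that binds them tightly. Interferon gamma binds IFNGR1, which signals together with IFNGR2. Both receptors work through Janus kinases and STAT proteins. Interferon beta is itself made on detection of foreign nucleic acid, and it can pass the antiviral state to neighbouring cells. Interferon tau (IFNT), secreted by the early conceptus of ruminants, is of type I and reaches both the endometrium and blood leukocytes in early pregnancy.

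The series held 14 one-colour arrays in 4 groups, each cell type having been incubated for 2 h with IFNT or with phosphate-buffered saline (PBS). Granulocytes were measured on 4 IFNT and 4 PBS arrays, and bovine endometrial stromal cells (BES) on 3 IFNT and 3 PBS arrays. The IFNT dose in the labels is 1 mg/mL, a high value that may be misprinted. RNA extraction is described only for granulocytes. Whether replicates are separate animals or cultures is not stated, so errors and p-values cover only the spread between these samples. No genetic alteration is named for any group. The labels call the granulocytes "In vivo/In vitro" and BES "In vitro".

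All granulocyte arrays lay on one slide and all BES arrays on another. Cell type and slide cannot be told apart. On the granulocyte slide the IFNT samples filled array row 2 and the PBS samples array row 1, so row and treatment cannot be told apart there either. Between 66.4% and 70.9% of probes were well above background on granulocyte arrays, and between 71.6% and 76.1% on BES arrays. All 6 measured granulocyte markers were above background on all granulocyte arrays. Of the 8 stromal markers, COL1A2, COL3A1, PDGFRA and LUM were on none of them, while COL1A1, THY1 and VIM were on all. The summed level of the stromal markers there was 25.1 to 27.2 with IFNT and 25.1 to 26.9 with PBS. All 8 stromal markers were above background on all BES arrays. So were 4 of the 6 granulocyte markers on the IFNT arrays and 5 on the PBS arrays. The summed level of the granulocyte markers in BES was 0.184 to 0.191 with IFNT and 0.187 to 0.205 with PBS. Of the 4 measured epithelial markers, the keratins KRT8 and KRT19 and the cadherin CDH1 were above background on all BES arrays, and EPCAM was on none. In granulocytes all 4 were above background on all IFNT arrays and 3 on all PBS arrays. Their summed level there was 3.86 to 5.65 with IFNT and 4.23 to 5.78 with PBS. The summed level of the epithelial markers in BES was 217 to 219 with IFNT and 206 to 235 with PBS. That of the stromal markers in BES was lower, at 151 to 155 with IFNT and 141 to 144 with PBS. The share of epithelial cells in BES was not tested.

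The 60-base probes that carry the genes are shown here because the identity of each signal rests on them. IFNAR2 has 1 probe (ABR1154) and IFNGR1 has 2 (A_73_115260 and ABR7391), of which the first 30 bases are given. Probe ABR7391 was designed on an expressed sequence tag, and the other members' probes on RefSeq transcripts. IFNB1 has 1 probe (ABR1499), printed whole beside the array's probe A_73_116430 for LOC517016, the 4th protein-coding gene after IFNB1 in the RefSeq order, which the files describe as similar to an interferon beta precursor. Sequences are as in the scanner files, 5′ to 3′.
IFNAR2 ABR1154: cagacaggtgactaatagagaaacatttgc
IFNGR1 A_73_115260: ttgtctatacagtcatttctatttggctta
IFNGR1 ABR7391: aaagccattgtcacatgtgaacctttgcat
IFNB1 ABR1499: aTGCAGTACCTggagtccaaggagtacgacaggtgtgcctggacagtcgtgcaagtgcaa
LOC517016 A_73_116430: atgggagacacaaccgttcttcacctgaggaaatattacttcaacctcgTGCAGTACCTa
Capitals mark the longest run that the interferon beta probe and the LOC517016 probe share, which is 10 bases. It begins at base 2 of ABR1499 and at base 50 of A_73_116430. No other probe on the array shared a run of 15 bases with any of these 5. GC content was 45% for IFNAR2, 35% and 41.7% for the IFNGR1 probes, 55% for IFNB1 and 45% for LOC517016.

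In granulocytes both receptor chains were lower under IFNT than under PBS, at 0.703 to 0.741 of the PBS level. Levels are given as log2 of the processed signal over the 75th percentile of the same array. IFNAR2 stood at 6.27, 6.36, 6.42 and 6.35 in granulocytes with IFNT, against 6.81, 6.77, 6.78 and 6.77 with PBS. Every IFNT array lay below every PBS array. The difference was -0.43 ± 0.046 (SE, n = 4 against 4), with a 95% interval of -0.54 to -0.33, or 0.741 of the PBS level (limma, adjusted p = 0.000101). No IFNAR2 spot was saturated, although its intensity reached 92372 to 106324 with IFNT and 113531 to 162446 with PBS.

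IFNGR1 was read by a pair of probes that share no run longer than 5 bases. Probe A_73_115260 read 4.46, 4.49, 4.61 and 4.51 in granulocytes with IFNT, against 5.11, 4.98, 5.04 and 4.96 with PBS. Probe ABR7391 read 5.07, 5.21, 5.26 and 5.14 with IFNT, against 5.70, 5.65, 5.68 and 5.63 with PBS. Again no IFNT array reached a PBS array on either probe. IFNGR1 fell by 0.51 ± 0.053 on the log2 scale on A_73_115260 (0.703 of the PBS level, adjusted p = 9.16e-05) and by 0.50 ± 0.051 on ABR7391 (0.709, adjusted p = 7.88e-05). The probes' levels ran together over the 8 granulocyte arrays (Pearson's r = 0.991, a description over arrays that share the treatment contrast). For IFNAR2 and each IFNGR1 probe, the exact permutation test over samples gave p = 0.0286 (two-sided), the smallest that 4 against 4 allow.

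Calls were common in granulocytes. Over all tested probes 44.6% were called in either direction, 27.4% as falls and 17.2% as rises, and in 43.6% the groups did not overlap. Among the 1038 brightest tested probes, to which both chains belong, 35% were called as falls. The median change over all tested probes was -0.05 and that over the 1038 brightest -0.07, and the 10th percentile of the brightest probes was -0.45. These arrays measured mixed RNA from many cells, so fewer cells of a type and less RNA per cell cannot be told apart. The summed level of granulocyte markers (6 of 9 measured) was 528 to 606 with IFNT and 546 to 709 with PBS. Its members went both ways: LTF (2.00-fold) and CATHL2 (2.52-fold) rose, and MMP9 (0.677 of the PBS level) and TREM1 (0.739) fell. S100A8 and S100A12, the brightest of them, did not pass. The summed level of monocyte and macrophage markers (4 of 6 measured) was 26.5 to 27.5 with IFNT and 28.2 to 30.8 with PBS. Of these 4 markers 3 rose (CD14 2.04-fold, C1QB 1.38-fold and C1QC 1.32-fold) and CD68 fell to 0.780 of its PBS level. Eosinophil markers (2 of 3 measured) summed to 10.6 to 12.1 with IFNT and 13.7 to 14.5 with PBS. Of these CCR3 fell to 0.395 of its PBS level and ALOX15 to 0.862. The part of these shifts in the receptor results was not tested.

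**Figure D1:**
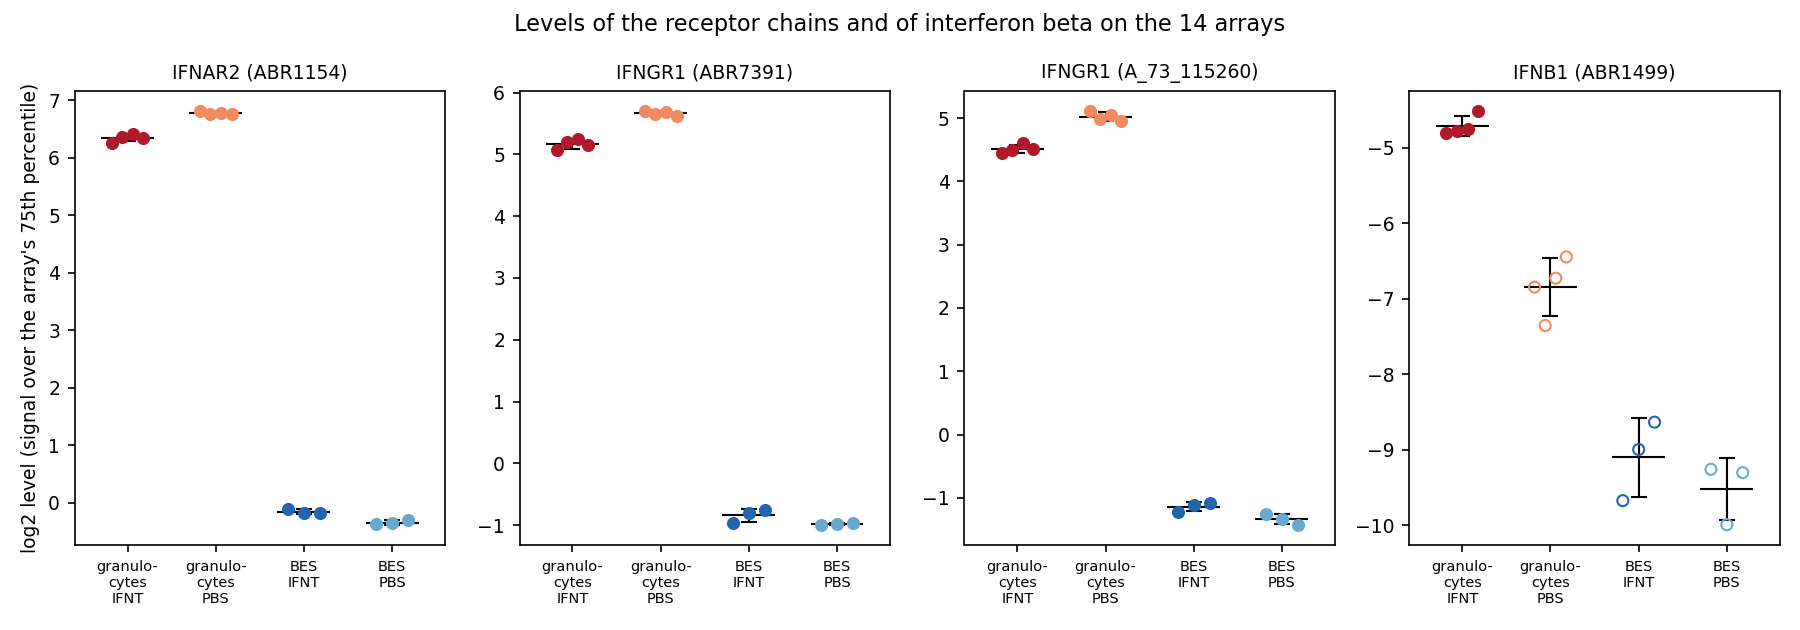
Log2 level of each member probe on each array (vertical axes, log2 signal over the array's 75th percentile; each panel has its own axis), with granulocytes and BES under IFNT and PBS along the horizontal axis. Points are arrays, lines are group means with SD, and open points are spots not well above background. IFNAR2 and both IFNGR1 probes are lower with IFNT in granulocytes, and IFNB1 is well above background on the 4 granulocyte IFNT arrays and on no other.

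In BES the same chains were read slightly higher with IFNT, and none passed the adjusted threshold. IFNAR2 stood at -0.11, -0.17 and -0.18 in BES with IFNT, against -0.37, -0.35 and -0.30 with PBS. The difference was 0.19 ± 0.045 (SE, n = 3 against 3; 95% interval 0.08 to 0.30; limma, adjusted p = 0.0753). All 3 IFNT arrays lay above the PBS arrays, a separation also present in 33.5% of tested probes in BES.

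IFNGR1 on A_73_115260 read -1.22, -1.11 and -1.09 in BES with IFNT, against -1.26, -1.33 and -1.42 with PBS, a difference of 0.20 ± 0.063 (adjusted p = 0.127). On ABR7391 it read -0.96, -0.81 and -0.76 with IFNT, against -0.99, -0.98 and -0.96 with PBS, a difference of 0.14 ± 0.062 (adjusted p = 0.225). The groups did not overlap on either probe, though on ABR7391 the nearest arrays round to the same value. The exact permutation test gave p = 0.1 for each of the 3 probes, the smallest that 3 against 3 allow. Of all tested probes in BES, 3.66% were called, 2.29% as rises and 1.37% as falls. IFNAR2 passed the threshold in BES in a pair of other settings, with adjusted p = 0.0294 when the spread was modelled with an intensity trend and a robust prior, and 0.0378 when all 14 arrays were fitted together.

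The responses of the cell types were compared directly. The IFNT response of IFNAR2 in granulocytes minus that in BES was -0.63 ± 0.061 (limma, adjusted p = 1.18e-05). For IFNGR1 the difference of responses was -0.71 ± 0.082 on A_73_115260 (adjusted p = 4.76e-05) and -0.63 ± 0.079 on ABR7391 (adjusted p = 8.50e-05). Of all probes tested, 26.5% differed between the responses.

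Both chains had far higher levels in granulocytes than in BES, under either treatment. With IFNT, IFNAR2 averaged 6.35 ± 0.06 in granulocytes and -0.15 ± 0.04 in BES (SD, n = 4 and 3), a 90.6-fold difference. With PBS it averaged 6.78 ± 0.02 in granulocytes and -0.34 ± 0.04 in BES, a 140-fold difference. For IFNGR1 the ratio of granulocytes over BES with IFNT was 50.3 on A_73_115260 and 64.5 on ABR7391. With PBS the same ratio was 82.3 and 100.05.

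The order of levels was therefore the same for the 3 receptor probes: granulocytes with PBS, granulocytes with IFNT, BES with IFNT and BES with PBS. The last neighbours did not differ past the adjusted threshold, while all other steps did. Differences between the cell types were the rule on these arrays, since 92.5% of tested probes were called with PBS and 92.7% with IFNT, and they carry the slide with them.

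The remaining chains of the interferon receptors were read for comparison, from a list of 6 genes that all had a probe. In granulocytes 4 of 5 tested chains fell and none rose, against falls in 27.4% of all tested probes and 35% of the brightest. This count includes the members IFNAR2 and IFNGR1 themselves, so it is no separate support for them. The median of the list, -0.43, is the value of IFNAR2. The other chains that fell were IL10RB and IFNGR2. IL10RB, the shared chain of the interleukin 10 and interferon lambda receptors, read 4.25, 4.17, 4.11 and 4.13 with IFNT, against 4.84, 4.65, 4.69 and 4.52 with PBS. It fell by 0.51 ± 0.071 on the log2 scale (adjusted p = 4.78e-04); its name rests on a description as similar to that gene.

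IFNGR2, the partner of IFNGR1, fell by 0.26 ± 0.066 on the log2 scale in granulocytes (0.836 of the PBS level, adjusted p = 0.0118). IFNAR1, the partner of IFNAR2, read -0.90, -0.73, -0.72 and -0.49 with IFNT, against -0.57, -0.45, -0.77 and -0.16 with PBS. These groups overlapped, and the difference of -0.22 ± 0.13 (95% interval -0.53 to 0.09) did not pass (adjusted p = 0.222). The test of IFNAR2 and IFNAR1 against each other was not run, so an unequal change of the partners is not shown.

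IFNLR1, the specific chain of the interferon lambda receptor, was above background on no granulocyte IFNT array and on 1 of 4 granulocyte PBS arrays, and was not tested there. On all 6 BES arrays it was above background, and with IFNT it was at least 7.10-fold lower in granulocytes than in BES. None of the 6 chains was called in BES, where their median change was 0.04 and 3.66% of all tested probes were called. With PBS, 5 of the 6 chains were higher in granulocytes than in BES and IFNLR1 was lower. Of all tested probes 92.5% were called in this comparison, in which cell type and slide cannot be told apart.

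In the RefSeq gene order of the bovine ARS-UCD2.0 assembly, IFNGR2, IFNAR1, IL10RB and IFNAR2 are neighbours, with no other protein-coding gene between them. IFNGR1 lies elsewhere, beside IL22RA2 and IL20RA, which code for chains of related cytokine receptors. Only 2 of 6 other chains of this receptor class had a probe. Of these, F3 (tissue factor) fell by 0.21 ± 0.053 on the log2 scale in granulocytes (adjusted p = 0.0113), and IL22RA1 differed by -0.11 ± 0.12 (adjusted p = 0.524).

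**Figure D2:**
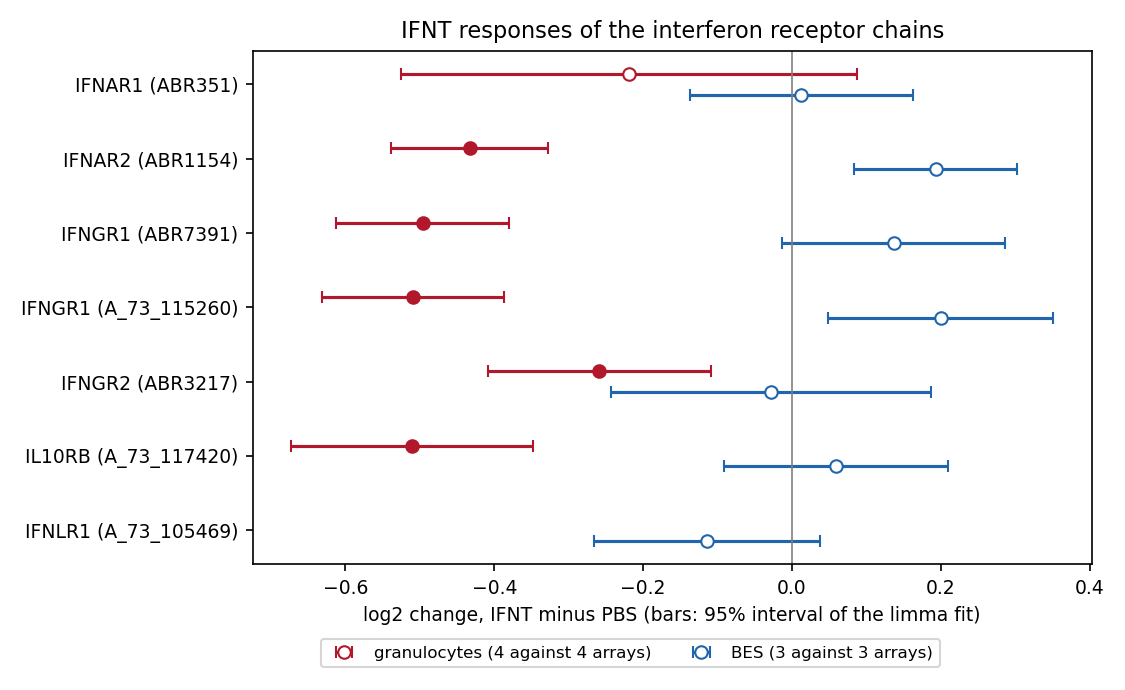
Change of each interferon receptor probe with IFNT (horizontal axis, log2 IFNT minus PBS; bars are 95% intervals of the limma fit) in granulocytes and in BES. Filled points passed an adjusted p of 0.05; IFNLR1 was not tested in granulocytes. In granulocytes IFNAR2, both IFNGR1 probes, IFNGR2 and IL10RB lie below 0, and no point is filled in BES.

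Interferon beta itself was detected only in granulocytes with IFNT. The IFNB1 probe gave intensities of 43.0, 47.2, 43.7 and 51.0 on these arrays, and was well above background on 4 of 4. With PBS it gave 8.77, 8.99, 11.4 and 17.1, and was well above background on 0 of 4. The lowest intensity called well above background on any probe was 18.1 to 26.6 on the granulocyte IFNT arrays and 20.8 to 24.1 on the PBS arrays. In BES the intensities were 3.51, 6.09 and 7.39 with IFNT and 5.19, 2.52 and 4.89 with PBS, none of them above background.

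IFNB1 averaged -4.71 ± 0.13 in granulocytes with IFNT and -6.84 ± 0.38 with PBS (log2 level, SD, n = 4 each). Set against the lowest signal that each PBS array could call, it was at least 2.19-fold higher with IFNT (log2 1.13) on the scanner's processed signal. This bound holds only for that background correction, since the normexp difference given below was 0.57. IFNB1 entered the fit only through the IFNT arrays, where it was high, so its fitted p is not given as support. Below the detection limit the true PBS level, and so the size of the rise, cannot be read. With IFNT it was at least 6.75-fold higher in granulocytes than in BES on the processed signal (log2 2.76). The lowest fitted difference over the other settings was 1.98, below that bound. No test of IFNB1 was possible within BES, where it was not above background. Whether its responses differed between the cell types cannot be read, since 3 of the 4 groups were below detection.

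Such a switch was rare. Of the probes above background on no granulocyte PBS array, 0.866% (36 of 4156) were above background on all 4 IFNT arrays. In the opposite direction the share was 0.221% (9 of 4078). On intensities this low, near the detection limit of the scanner software, the size of the change depends on how background is handled: with normexp background correction the IFNB1 difference was 0.57, against a fitted 2.13 with the scanner's own correction, in log2. IFNW1, the interferon omega gene, was above background on no granulocyte array, yet its intensities were 9.12 to 11.6 with IFNT and 4.25 to 6.25 with PBS, so this signal below detection also lay higher on the IFNT arrays.

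The LOC517016 probe for the gene described as similar to interferon beta showed the same pattern of detection. It read intensities of 35.6, 37.4, 34.8 and 30.7 in granulocytes with IFNT, well above background on 4 of 4. With PBS it read 11.3, 16.4, 8.96 and 20.3, on none of them well above background, and it was at least 1.64-fold higher with IFNT. LOC517016 was above background on no BES array. Over the 8 granulocyte arrays its level ran with that of IFNB1 (Pearson's r = 0.928, over arrays that share the treatment contrast).

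Of 21 interferon genes looked for, 6 had a probe, and 4 passed the filter in granulocytes, IFNB1 and IFNAA only through the IFNT arrays, so no count over them is read. IFNAA and IFNAC code for alpha interferons. IFNAA read 62.7, 60.6, 54.2 and 56.5 (intensity) in granulocytes with IFNT, against 6.89, 9.61, 6.24 and 8.15 with PBS. It was above background on all of these IFNT arrays and on none of the PBS arrays, and was at least 2.77-fold higher with IFNT.

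IFNAC read 139, 148, 116 and 120.01 with IFNT, against 29.0, 46.4, 20.4 and 36.4 with PBS, where 3 of 4 arrays were above background. It rose 4.35-fold (log2 2.12 ± 0.18, adjusted p = 2.39e-05). The longest run that its probe shared with the IFNB1 probe was 9 bases, and that of IFNAA 6 bases. Alpha interferon genes are many and alike, so the signal of an alpha probe may come from more than 1 of them, which was not tested.

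Interferon gamma (IFNG), the ligand of IFNGR1, was above background on all granulocyte arrays and differed by -0.07 ± 0.10 (95% interval -0.30 to 0.17, adjusted p = 0.641). IFNT2, a gene for interferon tau, and IFNW1, for interferon omega, were above background on no granulocyte array. None of the 6 genes reached the filter for a test in BES. IFNG is made mainly by T and NK cells, and the summed level of their markers (6 of 7 measured) was 2.86 to 3.10 with IFNT and 2.91 to 2.97 with PBS in granulocyte samples. Plasmacytoid dendritic cells are known as strong producers of type I interferon, but only TCF4 of their 5 markers had a probe. In granulocyte samples it read 0.183 to 0.225 with IFNT and 0.114 to 0.142 with PBS (signal over the 75th percentile). In BES it read 0.214 to 0.271 with IFNT and 0.173 to 0.229 with PBS, so this probe alone does not single out these cells. The part of plasmacytoid dendritic cells in the interferon signals was not tested.

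**Figure D3:**
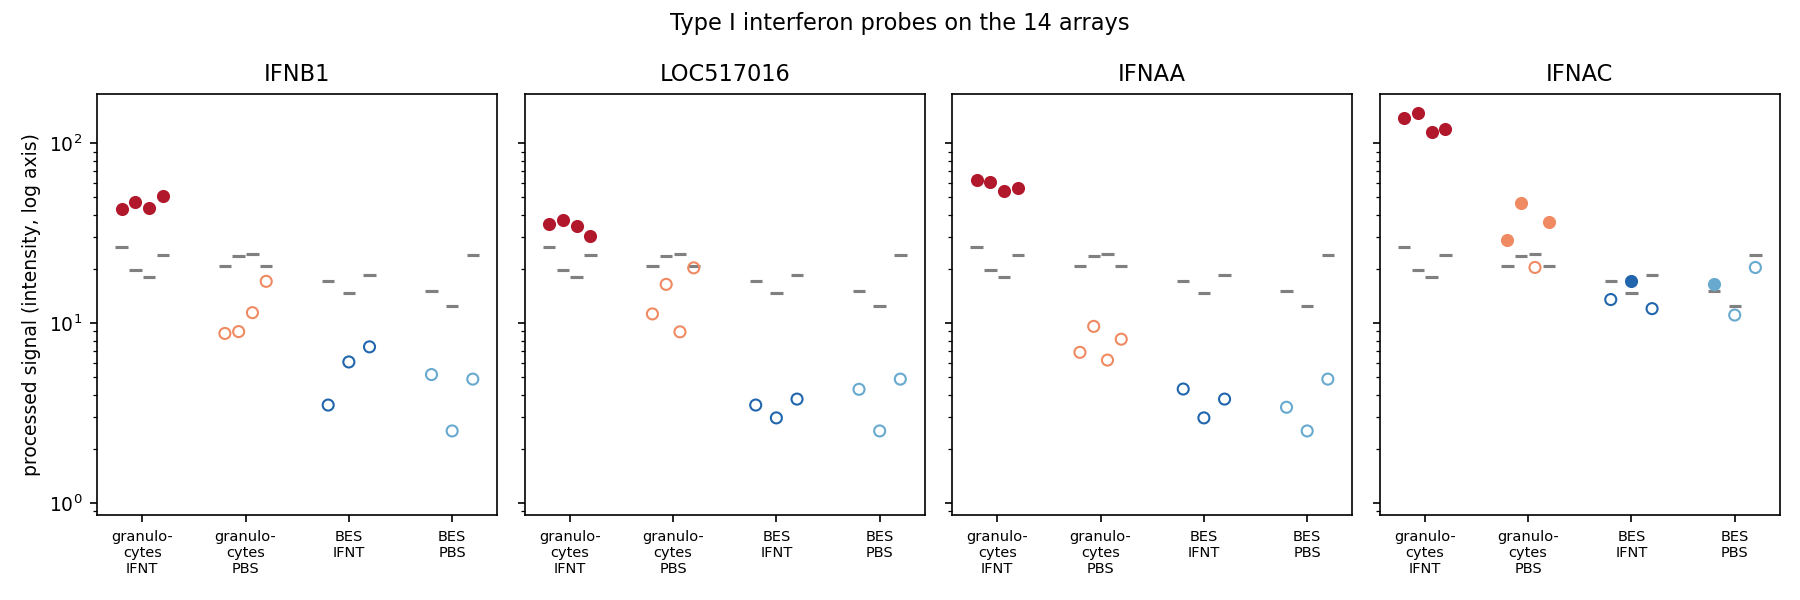
Processed signal (vertical axis, intensity on a log scale) of the probes for IFNB1, LOC517016, IFNAA and IFNAC on each of the 14 arrays, by cell type and treatment. Filled points are spots well above background, open points are not, and each grey dash is the lowest intensity that the same array called well above background. On granulocyte IFNT arrays all points lie above the dashes, and on granulocyte PBS arrays only 3 points of IFNAC do so.

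Genes that act upstream of IFNB1 were counted from a list of 20 sensors, adaptors and transcription factors, 15 of which were tested. In granulocytes 6 rose and 3 fell, with a median of 0.00, against rises in 17.2% and falls in 27.4% of all tested probes. DHX58, a regulator of RNA sensing, rose 10.2-fold (log2 3.34 ± 0.11), and the RNA sensor RIGI rose 5.23-fold (2.39 ± 0.06). IRF3, a transcription factor that switches on IFNB1, rose 5.89-fold (2.56 ± 0.09), and the lipopolysaccharide receptor TLR4 rose 3.62-fold (1.85 ± 0.05). Their adjusted p-values were 1.22e-08 to 7.54e-08.

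The members that fell in granulocytes, named after their values were seen, were the kinase TBK1 (-0.41 ± 0.071), the transcription factor subunit NFKB1 (-0.54 ± 0.16) and the adaptor TICAM1 (-0.44 ± 0.14). With no filter on dim probes NFKB1 and TICAM1 did not pass (adjusted p = 0.0566 and 0.0587). NFKB1 also did not pass without PBS sample 2 or IFNT sample 1, 3 or 4, nor TICAM1 without PBS sample 3 or IFNT sample 1, 2 or 3. In BES 5 rose and none fell, against rises in 2.29% and falls in 1.37% of all tested probes. There RIGI rose 15.03-fold (3.91 ± 0.06), DHX58 12.3-fold (3.62 ± 0.09) and the transcription factor IRF1 2.61-fold (1.38 ± 0.07). TLR3, the endosomal sensor of double-stranded RNA, rose 1.47-fold in BES (0.56 ± 0.06), a call lost with array row as a covariate (adjusted p = 0.0835). IRF3 rose 1.53-fold in BES (0.61 ± 0.11). Its call was lost with array row as a covariate, with no dim filter, and without PBS sample 1, 2 or 3 or IFNT sample 1 or 2. Over the other settings 3 to 5 genes of the list passed in BES. RIGI and DHX58 rose in both cell types. IFNB1 was below detection in BES, so its response there cannot be read, and a link to these genes was not tested.

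Genes that act downstream of the receptors also moved in both cell types. Of 11 kinases and transcription factors of interferon signalling, 5 were tested. In granulocytes 3 rose, against 17.2% of all tested probes, and in BES 2 rose, against 2.29%. IRF9, the DNA-binding part of the transcription factor complex formed after type I interferon, rose 2.05-fold in granulocytes (log2 1.03 ± 0.05) and 7.41-fold in BES (2.89 ± 0.05). STAT3 rose 1.21-fold in granulocytes (0.27 ± 0.04).

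Of 13 inhibitors of the pathway, 6 were tested in granulocytes. Of these 4 rose and 1 fell, against rises in 17.2% and falls in 27.4% of all tested probes. USP18, which binds IFNAR2 and dampens its signalling, rose 15.7-fold in granulocytes (3.98 ± 0.09) and 18.8-fold in BES (4.23 ± 0.09). SOCS2 rose 2.49-fold, CISH 2.43-fold and SOCS3 1.64-fold in granulocytes; these are feedback inhibitors of cytokine receptors. In BES their changes were 0.00 ± 0.05, -0.31 ± 0.09 and 0.12 ± 0.15 on the log2 scale, and none passed.

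Genes for receptor trafficking and turnover (8 of 10 measured) mostly did not pass, against calls in 44.6% of all tested probes in granulocytes and 3.66% in BES. In granulocytes PRKD2, a kinase that in human cells promotes removal of IFNAR1 from the surface, rose 1.43-fold (0.51 ± 0.05, adjusted p = 1.01e-04). CSNK1A1, a kinase that in human cells marks IFNAR1 for degradation, fell by 0.17 ± 0.06 on the log2 scale (adjusted p = 0.0420), and this call was lost when PBS sample 2, 3 or 4 or IFNT sample 1, 2 or 4 was left out, with quantile normalization and with no filter on dim probes. None of the 8 passed in BES.

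Targets of the receptors rose in both cell types. Among 13 interferon-stimulated genes tested in granulocytes all rose, with a median of 2.41, against -0.05 for all tested probes and rises in 17.2% of them. In BES 11 of 12 rose, with a median of 5.08, against -0.02 for all tested probes and rises in 2.29% of them. OAS1X and OAS2 were above background on no BES PBS array and passed the filter only through the IFNT arrays. Their calls are therefore no support, and the median includes them. The OAS2 call was also lost with array row as a covariate. That of CXCL10 was lost with no dim filter, with replicate number as a block, and without PBS sample 1 or 2 or any IFNT sample. Genes usually linked to interferon gamma rose as well. In granulocytes 6 of 6 did (median 1.38), led by GBP5 at 26.2-fold and GBP4 at 12.99-fold. In BES 4 of 6 did (median 0.87). There GBP4 and GBP5 passed the filter only through the IFNT arrays, where they were high, so their calls are no support. The BOLA-DMB call in BES was lost with no dim filter, with array row as a covariate, and without PBS sample 1 or 2 or any IFNT sample. Several of these genes respond to either interferon type, and many of the stimulated genes are shared between the receptors.

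**Figure D4:**
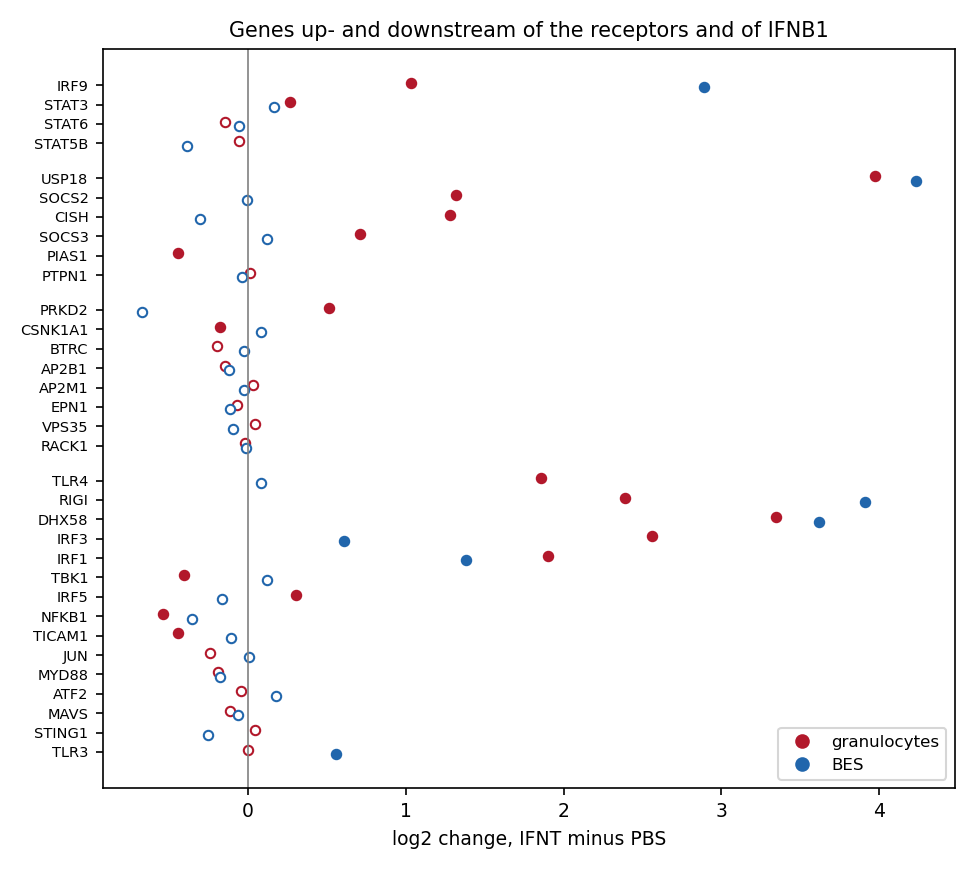
Change with IFNT (horizontal axis, log2 IFNT minus PBS) of genes in 4 blocks from top to bottom: kinases and transcription factors of interferon signalling, inhibitors, receptor trafficking, and inducers of IFNB1. Filled points passed an adjusted p of 0.05 in that cell type. IRF9, USP18, RIGI, DHX58, IRF3 and IRF1 lie right of 0 and are filled in both cell types, though IRF3 in BES did not pass with array row as a covariate, with no dim filter or without any 1 of 5 arrays.

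Probes whose levels ran most closely with the members were listed by Pearson's r, as a description without a test. Over the 8 granulocyte arrays, among 5232 named probes, IFNAR2 was closest to IFNGR1 on ABR7391 (r = 0.998), then to TRAF6 and ZNF330 (both 0.995). IFNGR1 on A_73_115260 was closest to TRAF6, ZNF330 and NBR1 (0.996 to 0.995), and on ABR7391 to IFNAR2, ZNF330 (0.996) and UBXN8 (0.994). Over all 14 arrays, IFNAR2 was closest to BIRC3, SETMAR and IFNGR1 on ABR7391 (each r = 1.00), where the gap between cell types and slides sets the coefficient. IFNGR1 was closest to CXCL8, IFNAR2 and either BIRC3 or OSBPL8 by the same measure.

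IFNB1 had its closest partners over the granulocyte arrays in EXO5 (r = 0.993), HPSE (0.992) and LOC407218 (0.991). These coefficients rest on PBS values below detection for IFNB1.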

How the data were processed

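Each array was hybridised with Cy3-labelled RNA, and the deposited scanner files hold fluorescence intensity made with Agilent Feature Extraction 9.5, per the submitters' processing notes. Per the file headers, the processed signal is an intensity after the software's background and spatial detrending steps, and spots at background carry substitute values. The authors' deposited value table holds log2 values, which equal the log2 processed signal minus 1 constant per array. Here log2 processed signals were centred on each array's 75th percentile, and outlier spots were dropped. Testing the response of a cell type required a probe to be well above background on at least 4 arrays (granulocytes) or 3 arrays (BES). The difference of responses required this in either cell type. Comparisons of the cell types required it on at least 3 arrays of the same treatment. A probe could thus enter these comparisons through 1 cell type alone. A gene with several probes was counted by its brightest tested probe.

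The comparisons used limma 3.58.1 (R 4.3.3), two-sided, with Benjamini-Hochberg adjustment over all tested probes and a threshold of 0.05. The fits were tested on simulated data. Tables and plots were made in Python 3.11.15. A fold against a group below background is a lower bound, from the lowest signal each array called well above background. Each such bound applies to the scanner's own background correction only. No depth applies to arrays; their number limits the precision. Alternatives covered normalization, background correction, the dim-probe filter, the prior, array row, the value table and each array left out.

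Members, gene lists and tests were chosen with earlier results of these data known. All probes of the members were named, with all receptor chains, the 4 genes of each list with the lowest p in either cell type, and the 3 probes most like each member. Of the genes so named, 1 is not reported here, though counts include it. Gene names came from the files' accessions and symbols through the RefSeq table of ARS-UCD2.0: 7104 probes received a symbol, 986 of them through a description as similar to a gene, and 8104 none. The files name no genome build, so no position is given. Whether replicate numbers pair the samples was checked by correlating deviations from group means: same-numbered samples gave 0.02 to 0.15 in BES and -0.15 to 0.24 in granulocytes, so they were not treated as pairs.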

Additional observations from a re-analysis of the deposited data

Results flagged for a closer look

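The responses of the receptor chains differed between the cell types by the test of the difference itself: adjusted p = 1.18e-05 for IFNAR2, 4.76e-05 for IFNGR1 on A_73_115260 and 8.50e-05 for IFNGR1 on ABR7391 (limma, all 14 arrays). Of all probes tested, 26.5% differed in this way. For IFNAR2 and both IFNGR1 probes the granulocyte IFNT arrays all lay below the PBS arrays. The groups did not overlap in 43.6% of tested probes in granulocytes. In BES the IFNT arrays of these probes all lay above the PBS arrays, and 33.5% of tested probes there showed no overlap. None of these BES changes passed the adjusted threshold in the reported fit.

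Within granulocytes with IFNT, sample 4 stood apart from the others for IFNB1, at -4.52 against -4.80 to -4.76, and its gap to the nearest sample was 0.842 of the group's range. It was 1 flag among 28 groups of 4 that were examined, and chance flags about 1 in 20. Without that sample the fitted IFNB1 difference was 2.07, against 2.13 with it.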

How the results depend on the processing

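No direction was reversed under any alternative run. In granulocytes the falls of IFNAR2 (-0.52 to -0.43), IFNGR1 on A_73_115260 (-0.51 to -0.48) and on ABR7391 (-0.50 to -0.47) passed the threshold in all 8 other settings. Leaving out each array in turn gave -0.46 to -0.41, -0.54 to -0.48 and -0.52 to -0.46, all past the threshold. The fitted IFNB1 difference was 0.57 to 2.16 (lowest with normexp), and 1.96 to 2.26 with each array left out. In BES, IFNAR2 kept 0.19 and passed with an intensity trend and robust prior (adjusted p = 0.0294) and with all 14 arrays in 1 fit (0.0378); over the other alternatives adjusted p was 0.0595 (normexp) to 0.481 (array row as a covariate). The limma unadjusted p for BES was 0.0046 for IFNAR2 and 0.0174 for IFNGR1 on A_73_115260, where the exact test cannot go below 0.1.

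Probes called in BES were 414 in the reported fit, 189 with no filter on dim probes, 1011 with the trend and robust prior, and 149 with array row as a covariate. Leaving out 1 array gave 183 to 534. It was 534 without PBS sample 3, 215 and 206 without PBS samples 1 and 2, and 183, 194 and 200 without IFNT samples 1, 2 and 3. The cause of these shifts in the count was not tested. Without PBS sample 3, array row and treatment cannot be told apart in BES. The replicate block gave 4674 calls in granulocytes against 4633, 318 in BES against 414 and 3147 for the difference of responses against 3197, and changed no call of a member. The levels of IFNB1 near background limit its size, and the number of arrays limits the exact tests.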
